A study of Arabidopsis thaliana with 14 samples.

Results

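The genotypes were compared in *Arabidopsis thaliana* plants kept watered for 6 days, on 2 of the 14 2-colour Agilent arrays of a drought time course. Members were chosen by condition alone, as the day 6 water arrays of replicates 1 and 2, and every gene with a locus name on the array was considered; 22810 genes were measured. Quad, the quadruple mutant of the brassinosteroid (BR) receptors and co-receptor, carries by the study's methods mutant alleles of BRI1, BRL1 (brl1-1), BRL3 (brl3-1) and BAK1 (bak1-3), and WT is Col-0. As background, the BRI1 allele is known as a weak missense allele and the other 3 as insertions. By the growth protocol both genotypes spent 7 days on agar plates and 16 days on soil in long days before watering was either kept up or stopped, and the series' design gives the plants as 28 days old. The samples are labelled mature whole plant. The methods also name entire plants as collected, and then describe each of the 2 biological replicates as made of several rosettes. Quad RNA was in Cy5 and WT RNA in Cy3 on replicate 1, with the dyes exchanged on replicate 2. The methods list days 0, 2 and 4 for the arrays, while the labels and the study's supplement also give day 6.

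BRs are plant steroid hormones that are perceived at the cell surface by the receptor kinase BRI1 and its relatives BRL1 and BRL3, which act together with co-receptors of the SERK family such as BAK1. Perception leads to the inactivation of the kinase BIN2 and to the activity of the transcription factors BES1 and BZR1, which promote cell elongation and repress the genes of BR synthesis. BRI1 is found widely in the plant, whereas BRL1 and BRL3 are best known from the vasculature and the root stem cell niche.

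Both arrays of day 6 water gave the quad/WT ratio of each gene on the log2 scale, where a positive value means higher in quad. A channel level is the normalised intensity of that genotype on that array, also on the log2 scale, and cannot be set against the level of another gene. Between 68.1 and 69% of probes were well above background in the quad channels, against 67.6 and 72.7% in the WT channels, and the last value was the highest of all channels in the series. The SD of the difference between the replicate ratios over all genes was 0.315, and the replicate ratios correlated by 0.628. Over the conditions of the series this SD ran from 0.211 at day 2 water to 0.346 at day 6 drought, where the correlation was 0.523. A gene was called when its Benjamini-Hochberg adjusted p in limma was under 0.05 and its absolute log2 ratio over 1.5, the limits of the study's methods. The number of arrays (n = 2 per condition) limits the precision of every value.

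The mutated receptor genes came first. BAK1 had levels of 10.48 and 10.58 in quad, against 12.74 and 12.74 in WT, and its log2 ratio of -2.21 ± 0.09 (n = 2) was called lower (limma adjusted p = 1.02e-07). Here and below ± is the moderated SE. It pools each gene's spread within conditions over all 14 arrays and is not the spread of the day 6 water arrays alone. BRL1 stood at 6.74 and 6.87 in quad, against 8.47 and 8.37 in WT, and was also called lower (-1.62 ± 0.22, adjusted p = 0.000511), though not without replicate 1 (-1.499). For BRL3 the levels were 7.80 and 8.04 in quad and 9.35 and 9.46 in WT. Its ratio of -1.49 ± 0.14 passed the adjusted p (4.01e-05) and lay just inside the log2 limit, so that BRL3 was not called. Quad was lower than WT in both replicates for these 3 genes, and the genotypes did not overlap. BRI1, with its missense allele in quad, had levels of 12.23 and 12.36 in quad and 12.19 and 12.02 in WT, with a ratio of 0.19 (adjusted p = 0.426). Where the probes lie relative to the insertions in the other 3 genes was not known. Of the other 5 members of this list, the co-receptors SERK1 (0.37), SERK2 (0.45) and SERK5 (0.42) passed the adjusted p alone, while SERK4 (0.15) and the receptor-like kinase BRL2 (-0.01) did not.

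At day 6 of watering 107 of 22810 genes were called (0.469%), of which 72 were higher in quad (0.316%) and 35 lower (0.153%). All 107 had the same sign on both arrays, and 79 of them passed the log2 limit on each array taken alone. No gene beyond 1.5 failed the adjusted p, so that the size of the ratio set the call. Adjusted p alone was passed by 1775 genes higher in quad (7.78%) and 1546 lower (6.78%). These shares over all genes are the background for the counts in each list below. The called ratios ran between 1.503 and 3.34 among the higher genes, with a median of 1.82, and between -3.46 and -1.504 among the lower genes, with a median of -1.72. Nearest to the limit on its inner side were PR5 (1.496, adjusted p = 0.0171), PDF2.1 (1.49) and MRD1 (-1.49), and just past it JAL34 (1.503), BGLU47 (-1.504) and AT2G43880 (1.51). Without replicate 1 of day 6 water the count of lower genes was 71, and scaling each array by its median in place of loess gave 102 higher and 21 lower, a share of higher genes of 82.9% in place of 67.3%. That scaling also moved the median ratio of all genes to 0.12, in place of 0.01.

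**Figure D1:**
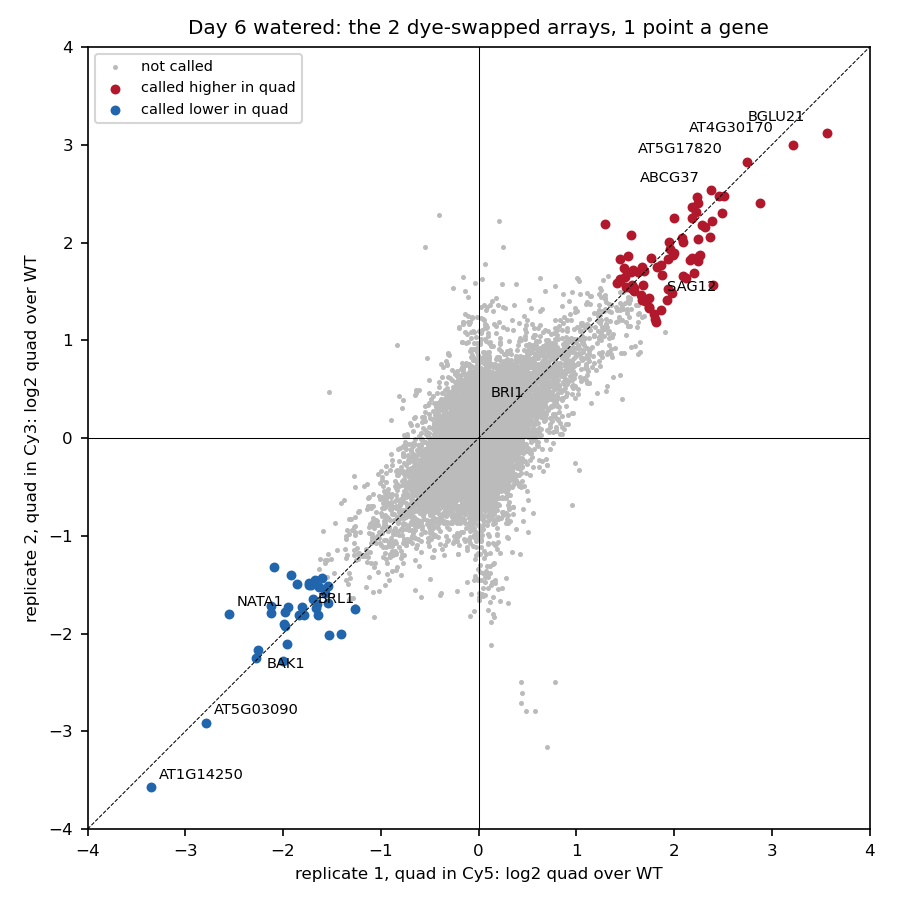
Log2 quad over WT of each measured gene on replicate 1 (quad in Cy5, x axis) and replicate 2 (quad in Cy3, y axis) at day 6 of watering; red points are the 72 genes called higher in quad, blue points the 35 called lower, and grey points the rest. The called genes lie near the diagonal in the upper right and lower left, and a small group of grey points lies far below 0 on replicate 2 while above 0 on replicate 1.

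The highest ratios at day 6 of watering belonged to a beta-glucosidase and to class III peroxidases. BGLU21, a beta-glucosidase of the family that fills the ER bodies of roots and seedlings, had levels of 10.54 and 10.28 in quad, against 6.98 and 7.17 in WT, a ratio of 3.34 ± 0.16 (10.1-fold, limma adjusted p = 2.14e-07). AT4G30170, of the class III peroxidases that oxidise phenolic compounds in the cell wall, reached 10.28 and 10.13 in quad, against 7.06 and 7.13 in WT (3.11 ± 0.13, 8.63-fold). AT5G17820, of the same family, stood at 9.40 and 9.79 in quad and 6.67 and 6.97 in WT (2.78 ± 0.18). In all 3 genes both quad channels lay above both WT channels by more than the range within either genotype. These genes, and the other largest rises and falls below, were picked by their ratios. Separation of their channels is therefore a description and no further support.

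Below them came AT2G25980, a mannose-binding lectin superfamily protein (levels of 9.74 and 9.26 in quad and 6.86 and 6.86 in WT, ratio 2.64), and AT4G15390, an HXXXD-type acyltransferase (9.66 and 9.52 in quad, 7.15 and 7.04 in WT, ratio 2.49). AT1G52120, another lectin of the mannose-binding family, had 9.59 and 9.83 in quad and 7.35 and 7.36 in WT (ratio 2.35). The lectins AT1G52070 and AT1G52050, singled out after their values were seen, were well above background in quad and not in WT on either array. By the mean log2 ratio of both arrays they were 4.08-fold and 3.70-fold higher in quad. These are fitted values and not lower bounds, since the genes' own WT signal was used. Further called genes were AT5G60530, a late embryogenesis abundant-related protein (ratio 2.47), AT4G29690 of the alkaline-phosphatase-like family (2.40), AT5G48110 of the terpenoid cyclases (2.30) and AT3G25930, an adenine nucleotide alpha hydrolase-like protein (2.27). WT channels of these last 4 genes lay between 6.61 and 7.64 and quad channels between 9.07 and 9.84, with no overlap.

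**Figure D2:**
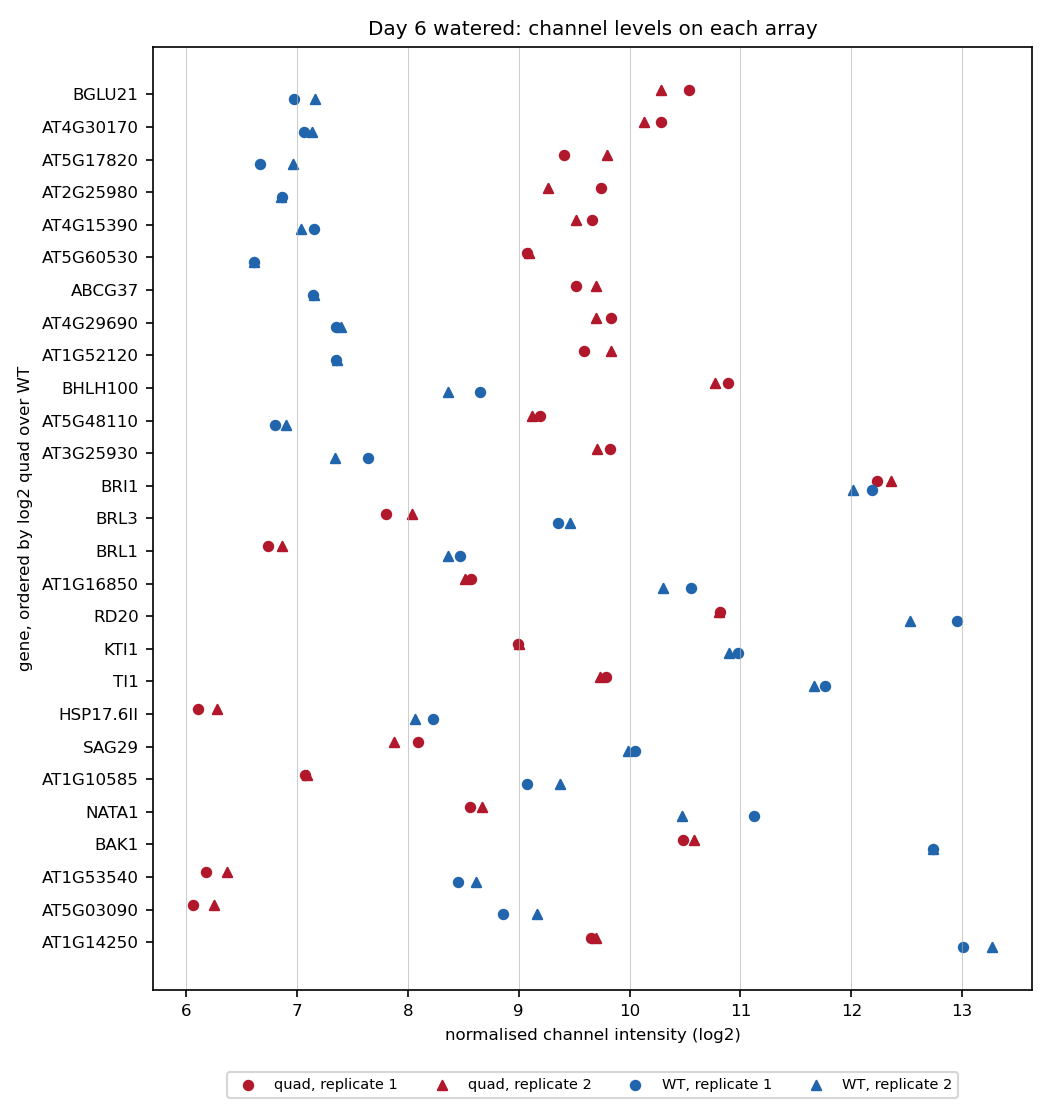
Normalised log2 channel intensity of the 12 genes with the highest and the 12 genes with the lowest ratios among those called, and of the receptor genes, ordered by log2 quad over WT; red symbols are quad and blue symbols WT, with circles for replicate 1 and triangles for replicate 2. The genotypes are more than 1 log2 unit apart in both replicates for every gene shown except BRI1, whose quad channels sit at 12.23 and 12.36 beside WT channels at 12.19 and 12.02.

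Genes of iron acquisition formed the group with the most calls. Of 24 members measured, 9 were called higher in quad and none lower, 18 passed the adjusted p alone, all higher, and the list's median ratio was 0.79, beside 0.01 over all genes. All 24 ratios were above 0, and 23 were above 0 on both arrays. The list's median was also above 0 at day 0 (0.59), day 2 water (1.08, 10 called higher), day 4 water (0.56) and day 4 drought (0.11). At day 2 drought it was -0.86, with 5 called lower and none higher. IRT1, the main iron importer of the root epidermis, had levels of 9.35 and 9.10 in quad, against 7.08 and 7.23 in WT (2.07 ± 0.17, adjusted p = 9.18e-06). FRO2, the ferric chelate reductase that supplies IRT1, stood at 9.54 and 9.38 in quad and 7.85 and 7.82 in WT (1.63 ± 0.09). The quad channels of both genes exceeded the WT channels in each replicate.

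The transcription factors and secreted-coumarin genes of the same response were also among the called. BHLH39, which acts with FIT to switch on IRT1 and FRO2, had levels of 9.44 and 9.38 in quad, against 7.14 and 7.20 in WT (2.24 ± 0.12), and its relatives BHLH100 and BHLH38 had ratios of 2.32 ± 0.24 and 2.13 ± 0.13. FIT itself passed the adjusted p at a ratio of 0.74 without being called. F6'H1, the enzyme that makes the coumarin scopoletin, reached 10.39 and 10.49 in quad, against 8.15 and 8.46 in WT (2.14 ± 0.19), and ABCG37, a transporter that exports such coumarins, 9.52 and 9.69 in quad, against 7.14 and 7.16 in WT (2.46 ± 0.18). The loci AT1G47395 (2.05) and AT1G47400 (1.62) on the list were called too. Probes of the close relatives BHLH38, BHLH39 and BHLH100 may detect each other's transcripts, which was not checked.

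Ferritins, the iron storage proteins of the chloroplast whose transcripts fall when iron is short, lay below 0. All 4 measured had ratios below 0 on both arrays, with a median of -0.55, and none was called. FER1 had levels of 10.22 and 10.17 in quad and 11.45 and 11.35 in WT (-1.21, adjusted p = 0.000116), and FER4 had a ratio of -0.76 (adjusted p = 0.000961). Summed over the list, ferritin intensity, given here and for other lists in units of 1000, was 2.22 and 2.14 in quad, against 4.16 and 4.22 in WT, and iron deficiency intensity 26.8 and 27.3 in quad, against 14.2 and 13.5 in WT.

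Genes that mark parts of the root were on the higher side. The samples are labelled whole plant. Of the 11 root hair genes, 1 was not well above background on either array in quad, against 7 in WT. Most genes of the other root lists were well above background in WT on both arrays. These were 16 of 18 endodermis and suberin, 11 of 13 root transport and 5 of 6 root tip genes. Over all genes 0.316% were called higher and 7.78% were higher by adjusted p alone. Of 13 root transport genes, 1 was called higher and 9 passed the adjusted p alone, all higher, with a median of 0.53. The called member was TIP2;3, a tonoplast aquaporin of roots, with levels of 9.16 and 8.91 in quad, against 7.07 and 7.25 in WT (1.88 ± 0.15). NRT2.1, the high-affinity nitrate transporter (1.22), and AMT1;3, an ammonium transporter (1.01), passed the adjusted p without being called. Intensity summed over the list was 8.92 and 8.23 in quad, against 5.36 and 5.36 in WT, with no overlap.

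The endodermis and suberin list had 18 members measured, of which 1 was called higher and none lower, and 8 were higher and 1 lower by adjusted p alone. CASP1, a scaffold protein of the Casparian strip, had levels of 8.58 and 8.30 in quad, against 6.65 and 6.78 in WT (1.73 ± 0.13). The suberin enzyme GPAT5 ran the other way (-0.75, adjusted p = 0.000413). In the root hair list 9 of 11 members were higher by adjusted p and none was called, with EXPA7, an expansin of root hairs, the highest at 1.2. This depended on the offset of the background correction: with an offset of 0, 5 were called higher (median 1.29), and on Agilent's processed signals 7 higher and 1 lower (median 2.54). The regulator RSL2 was lower by adjusted p (-0.44). RHS13, a root hair gene outside the list that was singled out after its values were seen, was 2.95-fold higher in quad by its mean ratio. In WT it was not well above background on either array.

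Summed intensity was 6.41 and 6.38 in quad, against 4.98 and 5.12 in WT, for endodermis and suberin, and 1.63 and 1.59 in quad, against 1.28 and 1.28 in WT, for root hairs. The 6 root tip genes had a median ratio of 0.36, with 3 higher by adjusted p. Their sums of 5.19 and 5.23 in quad and 4.16 and 5.27 in WT overlapped, and rest mostly on the brightest members, SHR and SCR. PLT2, a regulator of the root stem cell niche, had a ratio of 0.73 (adjusted p = 0.000267). In bulk RNA a larger share of root cells and more RNA per cell cannot be told apart, and the part of root content in the iron, peroxidase and other called genes was not tested.

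Among the 68 class III peroxidases measured, 5 were called higher and none lower. By adjusted p alone 29 were higher and 3 lower, beside 7.78% and 6.78% of all genes, and the median was 0.24. An offset of 0 gave 13 called higher and 1 lower (median 0.40), and the processed signals 17 higher and 1 lower (median 0.52). Besides the 2 genes already described, AT5G64100 had levels of 9.97 and 9.77 in quad, against 7.80 and 7.94 in WT (2.00 ± 0.21), and AT4G26010 8.29 and 8.04 in quad, against 6.17 and 6.40 in WT (1.88 ± 0.16). AT1G49570 was the fifth (1.53). Ratios of the family ran in both directions, with 21 of the 68 below 0 and AT4G17690 the lowest at -0.82.

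The ER body list had 17 members measured, all with ratios above 0 and 16 with both arrays above 0. Of these, 3 were called higher and 12 passed the adjusted p, with a median of 0.69. BGLU22, a near relative of BGLU21, had levels of 10.87 and 10.91 in quad, against 8.69 and 8.66 in WT (2.22 ± 0.16), and JAL34, a jacalin-related lectin, 13.96 and 13.92 in quad, against 12.54 and 12.34 in WT (1.503 ± 0.11), the last not called without replicate 2 (1.42). PYK10, the most familiar ER body beta-glucosidase, had a ratio of 0.79, and NAI2, which is needed to form ER bodies, one of 0.69, both past the adjusted p alone. Probes of BGLU21 and BGLU22 may detect both transcripts. List intensity was 99.7 and 94.7 in quad, against 61.3 and 50 in WT.

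Single members of other lists were called as well. PHT1;1, a phosphate transporter of the root surface, had levels of 9.45 and 9.48 in quad, against 7.37 and 7.43 in WT (2.06 ± 0.16), and was the only one of 12 phosphate starvation genes to be called. The median of that list was -0.07, and SPX1 (0.28) and SQD2 (-0.22), which rise in plants short of phosphate, did not pass the adjusted p. The near-identical PHT1;2 was called too (1.55). ACO5, an ACC oxidase of ethylene synthesis, stood at 10.20 and 10.21 in quad and 8.02 and 8.38 in WT (2.01 ± 0.17). The glutathione transferases GSTU25 (1.79 ± 0.20) and GSTF14 (1.77 ± 0.16) were the 2 called of 34 in their list. That list held 12 higher and 6 lower by adjusted p, beside 7.78% and 6.78% of all genes. GSTU17, at -1.46, was the lowest of them.

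**Figure D3:**
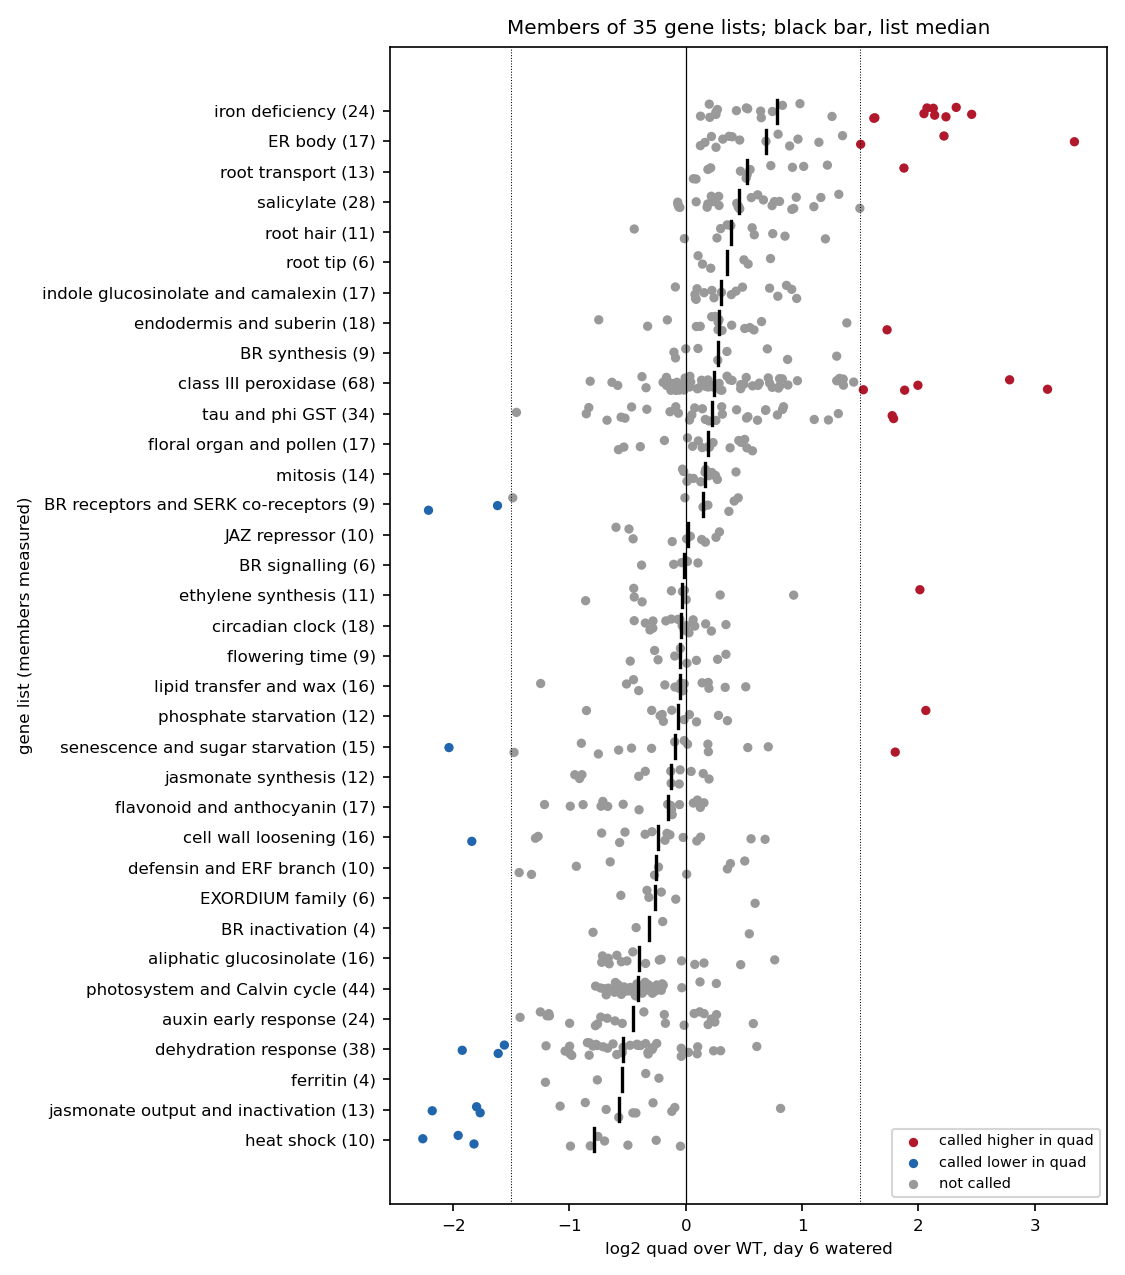
Log2 quad over WT of every measured member of the 35 gene lists at day 6 of watering, lists ordered by their median (black bar); the number measured is in brackets, dotted lines mark the log2 limit of 1.5, and red and blue points are genes called higher and lower in quad. Iron deficiency has the highest median (0.79) and heat shock the lowest (-0.79).

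The BR pathway outside the receptors showed no call. Among 9 BR synthesis genes, BR6OX2, which catalyses the last steps to active BR, had levels of 12.14 and 12.28 in quad, against 10.90 and 10.92 in WT (1.3 ± 0.15, adjusted p = 0.000153). DWF4, the rate-limiting hydroxylase, reached 12.04 and 12.06 in quad, against 11.26 and 11.09 in WT (0.88 ± 0.10, adjusted p = 0.000169). CYP90D1 (0.70) and BR6OX1 (0.35) also passed the adjusted p, while CPD (0.10), DWF1 (0.28), DET2 (-0.10), DWF7 (-0.09) and DWF5 (-0.00) did not. The genotypes did not overlap for BR6OX2, DWF4, CYP90D1 and BR6OX1, and did for CPD, whose WT levels of 11.56 and 12.17 lay on either side of 11.96 and 11.98 in quad. Of the enzymes that inactivate BRs, BAS1 had a ratio of -0.80 (adjusted p = 0.00192), SOB7 one of -0.43 and BIA1 one of 0.55. BES1 (-0.38, adjusted p = 0.0459) was the only one of 6 signalling genes to pass the adjusted p.

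Medians of the cell wall loosening, early auxin response and Exordium lists lay below 0. That of the mitosis list was 0.17, with 12 of 14 ratios above 0. In the cell wall loosening list 1 of 16 was called, XTH3, a xyloglucan endotransglucosylase, with levels of 7.43 and 7.28 in quad, against 9.37 and 9.01 in WT (-1.84 ± 0.19, adjusted p = 6.63e-05). The expansins EXPA8 (-1.29) and EXPA11 (-1.27), which loosen the wall for growth, passed the adjusted p alone, and the list held 6 such genes lower and 2 higher, with a median of -0.24. XTH7, of the same enzyme family but outside the list, was called lower as well (-1.77) and was singled out after its values were seen. None of 24 early auxin response genes was called, while 12 were lower and 1 higher by adjusted p, with a median of -0.45 and IAA6, an Aux/IAA repressor, the lowest at -1.42. The Exordium gene PHI-1 (-0.56, adjusted p = 0.0417) and EXL5 (-0.32) were lower, and EXL4 (0.60) higher, by adjusted p alone.

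The lowest ratio of all belonged to AT1G14250, of the GDA1/CD39 nucleoside phosphatases, with levels of 9.65 and 9.70 in quad, against 13.01 and 13.27 in WT (-3.46 ± 0.08, 11-fold, adjusted p = 4.48e-10). Next was AT5G03090, annotated as Mto 1 responding down, with 6.06 and 6.25 in quad, against 8.85 and 9.17 in WT (-2.85 ± 0.30). The third was the locus AT1G53540, on the heat shock list, at 6.18 and 6.37 in quad and 8.46 and 8.62 in WT (-2.26 ± 0.08). For all 3 both quad channels were lower than both WT channels. Their order held only for the processing used here. Under the alternatives given below AT1G14250 ran from -3.58 to -3.32, AT5G03090 from -5.11 to -2.74 and AT1G53540 from -4.19 to -2.17. The genes HSP17.6II (-4.23 to -1.79) and CYP94B3 (-3.83 to -1.74), described below, also had wide ranges.

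Jasmonate output genes were among the called. NATA1, which acetylates ornithine in jasmonate-treated leaves, had levels of 8.56 and 8.67 in quad, against 11.12 and 10.47 in WT (-2.18 ± 0.20, adjusted p = 2.22e-05). CYP94B3, which inactivates the hormone jasmonoyl-isoleucine, stood at 6.19 and 6.36 in quad and 7.98 and 8.17 in WT (-1.80 ± 0.27), and AT2G38240, a 2-oxoglutarate dependent oxygenase, at 6.91 and 7.13 in quad and 8.72 and 8.86 in WT (-1.77 ± 0.22). These were the 3 called of 13 measured, and 5 were lower and 1 higher by adjusted p alone, with a median of -0.58. The exception, TAT3, a tyrosine aminotransferase, had a ratio of 0.81. Of 12 synthesis genes none was called, and AOS (-0.95), AOC2 (-0.91) and AOC1 (-0.89), which act early in the pathway, were lower by adjusted p. The protease inhibitors TI1 (-1.95 ± 0.29) and KTI1 (-1.95 ± 0.32) were called lower outside any list, but not under the scaling by medians (-1.79 for TI1 and -1.77 for KTI1).

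Dehydration genes lay mostly below 0 in these watered plants. Of 38 measured, 3 were called lower and none higher, 19 were lower and 1 higher by adjusted p alone, and 29 were below 0 on both arrays, with a median of -0.54. RD20, a caleosin of stressed leaves, had levels of 10.82 and 10.81 in quad, against 12.95 and 12.53 in WT (-1.92 ± 0.18). The late embryogenesis proteins LEA4-5, at 7.87 and 8.09 in quad and 9.40 and 9.78 in WT (-1.61 ± 0.17), and LEA7, at 8.66 and 8.55 in quad and 10.33 and 10 in WT (-1.56 ± 0.10), were the other 2. None of the 3 was called when arrays were scaled by their medians, with ratios of -1.78, -1.44 and -1.37, and LEA7 was not called without replicate 1 (-1.45). RD29B had a ratio of -1.04 and RAB18, another abscisic acid responsive gene, one of -0.04. List intensity was 138 and 122 in quad, against 202 and 199 in WT. The direction was not shared by all watered plants, as the list's median was 0.45 at day 2 water and -0.57 at day 4 water. LEA7 had ratios of 2.71 at day 2 water and -5.02 at day 4 water. Its difference of day 6 water from day 4 water was called higher (3.46 ± 0.14, limma adjusted p = 1.82e-07). The cold response factor CBF2 was called lower outside the list (-1.72), and ddf2, of the same family, was 2.98-fold lower by its mean ratio. In quad ddf2 was not well above background on either array, and both genes were singled out after their values were seen.

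The heat shock list had 10 members measured, all below 0, with a median of -0.79, 3 called lower and 8 lower by adjusted p alone. HSP17.6II, a small chaperone, had levels of 6.11 and 6.28 in quad, against 8.23 and 8.07 in WT (-1.96 ± 0.11, adjusted p = 8.15e-07), and HSP17.4 6.60 and 6.51 in quad, against 8.43 and 8.32 in WT (-1.82 ± 0.16). The heat shock factor HSFA2 (-0.82) and the disaggregase HSP101 (-0.76) passed the adjusted p alone. Summed intensity was 3.21 and 3.1 in quad, against 5.63 and 5.65 in WT. Small heat shock protein probes may detect close relatives, which was not checked.

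In the senescence list 2 markers were called in opposite directions. SAG12, a cysteine protease used as a marker of leaf ageing, had levels of 11.70 and 11.72 in quad, against 9.94 and 9.88 in WT (1.8 ± 0.13, adjusted p = 5.67e-06). SAG29, a sugar transporter, stood at 8.09 and 7.87 in quad and 10.05 and 9.98 in WT (-2.04 ± 0.35, adjusted p = 0.00237). SAG13 had a ratio of -1.48 and WRKY53, a regulator of senescence, one of 0.71, both past the adjusted p alone. SAG29 was not called under the scaling by medians (-1.85) or without replicate 2 (-1.96). The list's median was -0.10 over 15 genes.

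No photosystem or Calvin cycle gene was called, and the ratios of the 44 measured were small and mostly on one side of 0. All but 2 had ratios below 0, 39 were below 0 on both arrays, and 21 were lower by adjusted p, with a median of -0.41 and LHCB2.1, a light-harvesting protein, the lowest at -0.78. Summed intensity was 744 and 660 in quad, against 903 and 912 in WT. Summed intensity was thus lower in quad for green tissue genes and higher for root transport genes in both replicates, and its part in the calls of single genes was not tested.

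Defence lists lay on both sides of 0. Of 28 salicylate genes none was called and 16 were higher by adjusted p, with a median of 0.46. PR5, a thaumatin-like protein, was the highest (1.496, adjusted p = 0.0171), with 14.32 and 14.22 in quad and 12.69 and 12.86 in WT, while PR1, the usual marker, had a ratio of 0.91 (adjusted p = 0.0706). Indole glucosinolate and camalexin genes had 7 of 17 higher by adjusted p, among them the regulator MYB51 (0.95) and PAD3, of camalexin synthesis (0.91). Aliphatic glucosinolate genes had 7 of 16 lower and 2 higher, with a median of -0.40. Flavonoid genes had 5 of 17 lower by adjusted p, beside 6.78% of all genes. Mitosis, flowering time, floral, clock, wax, JAZ and defensin lists had no call, with medians between -0.25 and 0.19.

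The same genotype comparison was then set against plants from which water had been withheld for 6 days. The quad/WT ratio differed between day 6 water and day 6 drought for 87 genes (0.381%), with 76 higher (0.333%) and 11 lower (0.0482%) at day 6 water, by limma's test of the difference itself with the same limits. Both conditions shared a slide within each replicate, and every difference within a replicate was therefore within a slide. Scaling each array by its median gave 36 such genes. Of the 76, 9 were called at day 6 water. Over all 76 the median ratio was 0.81 at day 6 water and -1 at day 6 drought, and 56 had opposite signs in the 2 conditions. The difference chose these genes and favours opposite signs, so that the gap between the medians is no result of its own.

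SAG12 differed most. Its ratio was 1.76 and 1.84 at day 6 water, against -3.51 and -3.90 at day 6 drought, a difference of 5.51 ± 0.19 (limma adjusted p = 2.52e-08). The ratio was also above 0 at day 0 (1.52), day 2 water (6.25) and day 4 water (3.33). Set against day 4 water, SAG12 was called lower at day 6 water (-1.53 ± 0.19, limma adjusted p = 0.000411). Salicylate genes were among the 76, with 7 of 28 called, among them PR1 (difference 2.59), PR5 (2.44) and PR2 (2.34), and the list's median was 0.46 at day 6 water and -0.50 at day 6 drought. PER64, a peroxidase of the Casparian strip, had ratios of 0.10 and -0.10 at day 6 water, against -2.81 and -4.94 at day 6 drought (difference 3.87 ± 0.53). The lipid transfer protein LTP4 (3.38 ± 0.22) and the latex-like protein MLP168 (2.97 ± 0.31) likewise lay near 0 at day 6 water and far below it at day 6 drought.

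Among the 11 genes lower at day 6 water, AT1G14250 had ratios of -3.35 and -3.57 there, against -0.09 and -0.20 at day 6 drought (difference -3.32 ± 0.11). The heat shock locus AT1G53540 followed the same course, with -2.27 and -2.25 at day 6 water, against -0.07 and -0.15 at day 6 drought (-2.15 ± 0.12). XTH3 had ratios of -1.95 and -1.73 at day 6 water and 0.44 and 0.69 at day 6 drought (-2.40 ± 0.27), so that its sign was opposite in both replicates. AT4G17470 was the fourth (-1.99 ± 0.27). XTH3 and AT4G17470 were not called in the difference under the scaling by medians (-2.28 and -1.84), nor was PER64 (3.99). The iron deficiency median was 0.79 at day 6 water and 0.41 at day 6 drought, and none of its 24 members was called in the difference.

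**Figure D4:**
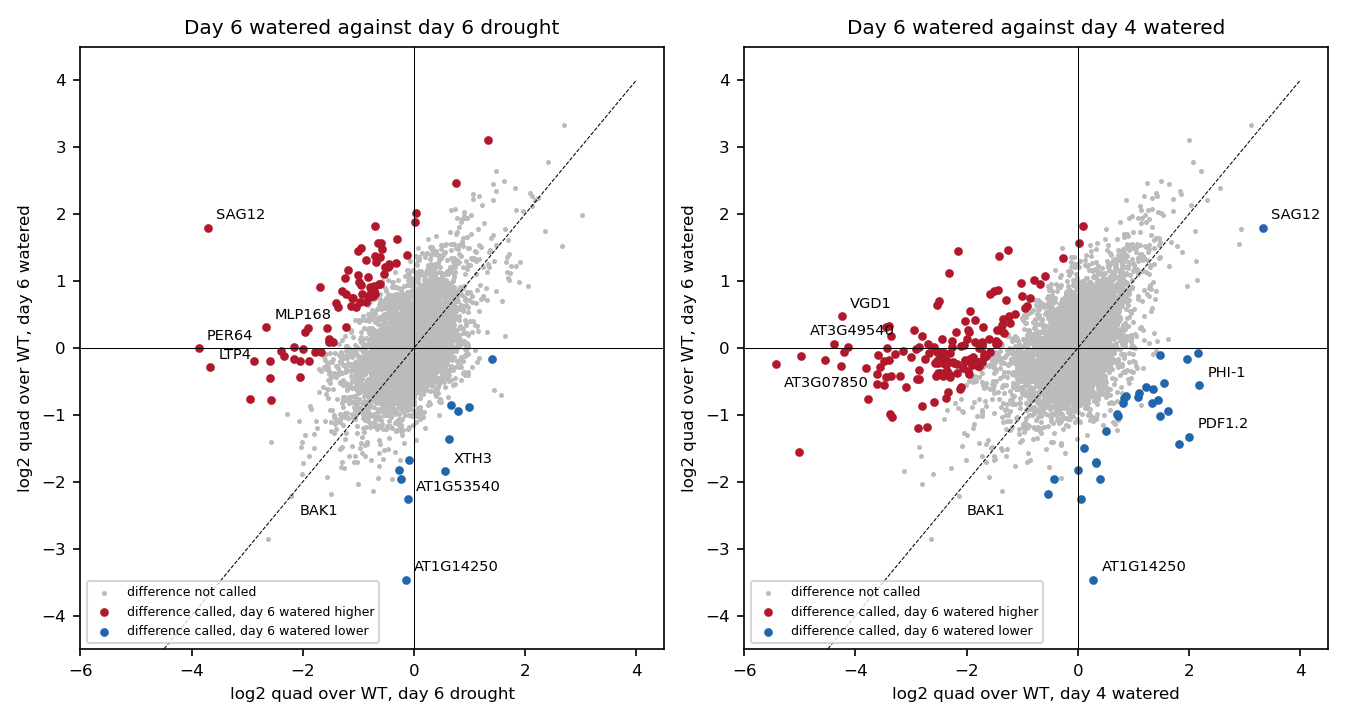
Log2 quad over WT at day 6 of watering (y axis) against day 6 drought (left panel) and day 4 of watering (right panel), 1 point a gene, with red and blue points where the difference was called with day 6 watering higher or lower; the dashed line marks equal ratios. SAG12 lies far above the line against day 6 drought, AT1G14250 far below it in both panels, and BAK1 close to it.

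Between day 6 water and day 4 water the ratio differed for 180 genes (0.789%), 149 higher (0.653%) and 31 lower (0.136%) at day 6 water. The 149 had a median ratio of -0.11 at day 6 water and -2.27 at day 4 water. Of these, 123 were called at day 4 water and 3 at day 6 water. The 149 were also chosen by the difference, so that the gap between their medians is no result of its own. The 4 with the largest differences had mean ratios between -0.23 and 0.48 at day 6 water. VGD1, a pectin methylesterase of pollen tubes, had a ratio of 0.48 at day 6 water and -4.25 at day 4 water (difference 4.72 ± 0.35), and AT3G07850 (5.20), AT3G49540 (4.86) and AT2G47050 (4.45) were of similar size. In the floral list 5 of 17 members were called in the difference, and the list's median was 0.19 at day 6 water and -0.87 at day 4 water. Floral list intensity at day 6 water was 31.6 and 29.7 in quad, against 30.2 and 24.4 in WT.

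Among the 31 genes lower at day 6 water were the defensins PDF1.2 (-3.33 ± 0.31) and PDF1.2c (-3.25 ± 0.43), PHI-1 (-2.75 ± 0.23) and AT1G14250 (-3.74 ± 0.11). PDF1.2 had ratios of -1.08 and -1.57 on the arrays of day 6 water and a mean of 2.01 at day 4 water. PDF1.2 and PDF1.2c are near-identical and their probes may not be separate. Only replicate 1 of these 2 conditions shared a slide, where the differences were -3.35 for PDF1.2, -3.50 for PDF1.2c, -2.78 for PHI-1 and -3.67 for AT1G14250, against -3.32, -3.01, -2.72 and -3.82 in replicate 2. Genes were named here only if the difference went the same way in both replicates. The shared direction within and between slides is therefore no check on the slides. In both differences 24 genes were called in the same direction, 20 higher and 4 lower at day 6 water, and the 4 were AT1G14250, AT1G53540, HSP17.4 and HSP17.6II.

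The 107 genes called at day 6 water were followed through the other conditions, which have their own plants. With watering kept up, the 72 higher genes had a median ratio of 0.28 at the start, 0.998 after 2 days, 1.26 after 4 days and 1.82 after 6 days, and without water their medians were -1.17, 0.22 and 0.93 after 2, 4 and 6 days. For the 35 lower genes the medians with watering were -0.78, 0.07, -1.30 and -1.72 in the same order of days, and those without water -0.93, -0.96 and -0.87. Day 6 water is the condition that chose these genes, so that its own median is no result. The median of the higher genes was lowest after 2 days of drought, and that of the lower genes was nearest to 0 after 2 days of watering.

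Calls of the 107 in the same direction numbered 18 before treatment, where 0.737% of all genes were called in either direction. With watering there were 33 after 2 days (1.65% of all genes called) and 32 after 4 days (1.04%). Without water there were 14 after 2 days (0.894%), 12 after 4 days (0.272%) and 22 after 6 days (0.443%). After 2 days of drought 25 of the 107 were called in the opposite direction. BAK1 and AT5G03090 were called in the same direction in all conditions, and 31 genes were called at day 6 water only. Against the mean of the other 6 conditions 49 genes differed (0.215%), with 37 higher (0.162%) and 12 lower (0.0526%) at day 6 water, of which 25 higher and 6 lower were called at day 6 water, and without replicate 1 of day 6 water 80 genes differed. Among them were AT4G30170 (difference 3.099), BGLU21 (2.68), the methionine sulfoxide reductase MSRB7 (2.48) and AT5G60530 (2.28) on the higher side, and AT1G14250 (-2.42), KTI1 (-2.19), AT1G53540 (-2.13) and AT3G59930 (-2.01) on the lower. AT3G59930 had ratios of -0.70 and -0.71 at day 6 water and of 3.097 and 0.04 at day 6 drought, where its replicates were far apart, and its call was lost under 5 alternatives. That of KTI1 was lost under the scaling by medians and without replicate 2 of day 6 water. Ratios of BGLU21 were 3.34 at day 6 water, 2.71 at day 6 drought and 3.11 at day 4 water. The differences of 0.63 (limma adjusted p = 0.159) and 0.23 (limma adjusted p = 0.652) from the last 2 of these were not called. BGLU21 was not higher in quad throughout. Its ratio was -0.06 before treatment, 2.46 after 2 days of watering and -0.33 after 4 days of drought. After 2 days of drought it was called lower in quad (-3.89). So were AT4G30170 (-3.72), AT5G17820 (-2.94), MSRB7 (-2.31) and AT5G60530 (-1.78). That reversed condition is part of the mean of the other 6, and its share in these genes' differences was not tested.

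**Figure D5:**
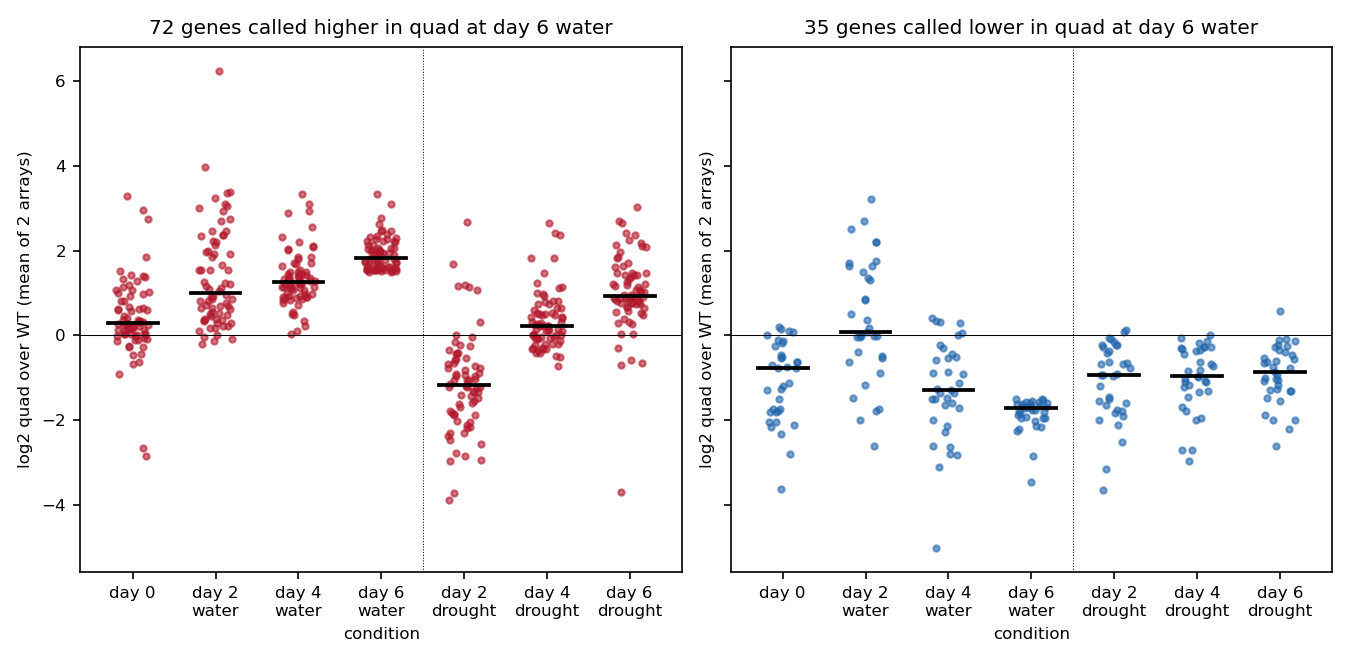
Log2 quad over WT (mean of 2 arrays) in all 7 conditions of the 72 genes called higher (left panel) and the 35 called lower (right panel) at day 6 of watering, with a black bar at each median. The median of the 72 lies at -1.17 at day 2 drought and above 0 in the other 6 conditions, and that of the 35 is below 0 in every condition except day 2 water (0.07).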

How the data were processed

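The deposited scanner files, written by Feature Extraction 10.5.1.1, hold per the file headers raw spot and background intensity in both channels, corrected intensities, quality flags and the log10 ratio of Cy5 over Cy3. The authors also deposited normalised log2 ratios, made per the methods with limma, normexp and quantile normalisation. These deposited ratios were unturned for the dye swap and served as an alternative. Their log2 scale was settled against the ratios made here from raw intensities (correlations of 0.9989 to 1, slopes of 0.9984 to 1.011). The scanner's log10 ratios, put on the log2 scale, could not settle it. Correlations with those were 0.417 to 0.833 and slopes 0.11 to 0.491. Each channel holds plants pooled together, and 0 per-sample columns were left unused.

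Raw median intensities were corrected by normexp (maximum likelihood, offset 50), then by loess within and Aquantile between arrays (limma 3.58.1, R 4.3.3, statmod 1.5.0, data.table version 1.17.8). The offset understates ratios of dim genes. The 1417 control spots among 45210 and spots flagged as outliers (between 1 and 126 an array) were left out, and no spot was saturated. Of 43643 probes 36953 named a locus, and 27785 of 28327 loci matched the RefSeq table, used for symbols. Each locus took its brightest probe by mean intensity. A gene was kept if, in 1 or more conditions, a genotype had it well above background in both replicates (22810 genes, with 5517 below). All 14 arrays entered 1 fit with a coefficient per condition (7 residual and 4.81 prior degrees of freedom), and SE are moderated. Folds of genes not well above background in a genotype took, per array, the higher of the gene's own signal and the lowest signal well above background. For the genes named, that was their own signal. The code was tested on simulated data.

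The condition and the lists were chosen with earlier results of these data known. Genes named are the 4 mutated receptors, the 12 largest rises and falls called, the 4 largest in each direction of 3 differences, up to 4 called members of each of 35 lists (596 of 619 loci measured) and the BR synthesis genes; other list members are given as examples. The largest rises, falls and differences were taken among genes that went the same way in both replicates. Annotation was not found for 43 of the 619 list loci. Alternatives changed the offset, background correction, scaling, filter, probe rule, limits, arrays fitted and replicate or slide block. Sequences and coordinates are not given.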

Additional observations from a re-analysis of the deposited data

Results flagged for a closer look

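These results are given because a test of the difference between conditions, itself fitted in limma, passed the limits. Groups of 2 arrays are too small for a test of single samples that stand apart. The quad/WT ratio differed between day 6 water and day 6 drought for 87 genes and between day 6 water and day 4 water for 180. Against day 6 drought the differences were 5.51 for SAG12, 3.87 for PER64, 3.38 for LTP4 and 2.97 for MLP168 on the higher side, and -3.32 for AT1G14250, -2.40 for XTH3, -2.15 for AT1G53540 and -1.99 for AT4G17470 on the lower. Against day 4 water they were 5.20 for AT3G07850, 4.86 for AT3G49540, 4.72 for VGD1 and 4.45 for AT2G47050 on the higher side, and -3.74 for AT1G14250, -3.33 for PDF1.2, -3.25 for PDF1.2c and -2.75 for PHI-1 on the lower.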

How the results depend on the processing

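Counts are given in the order higher, lower, day 6 water minus day 6 drought, minus day 4 water and minus the mean of the other conditions, with 72, 35, 87, 180 and 49 as reported. An offset of 0 gave 267, 84, 214, 419 and 185. Agilent's processed signals gave 454, 142, 343, 624 and 334. The adjusted p alone gave 1775, 1546, 1070, 1410 and 1332, and a log2 limit of 1 gave 249, 140, 371, 480 and 205. Median centring gave 21 lower and 36 minus day 6 drought. Leaving out a replicate gave 80 to 92, 42 to 71, 81 to 116, 179 to 251 and 55 to 80, with the larger count of lower genes without replicate 1. The 72 and 35 genes were all kept with an offset of 0, the processed signals, the deposited ratios, loess alone, no filter and the watered arrays alone.

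The replicate number is the dye orientation, and deviations of same-numbered arrays correlated by 0.0039 to 0.634 over 21 pairs of conditions, 19 of them over 0.1, so the numbers were not taken to pair plants. With the replicate block the counts were 72, 35, 90, 183 and 50, with the same 72 and 35 genes. With the slide as a random block (correlation 0.4) they were 78, 34, 91, 196 and 53. Without day 4 drought replicate 1, chosen after seeing the data, they were 72, 35, 86, 179 and 50.

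By list, the processed signals gave more calls for iron deficiency (13, median 1.89), root transport (4, median 0.835), endodermis and suberin (4, median 0.497) and tau and phi GST (4), and 2 for salicylate, and an offset of 0 gave 2 for root transport, 2 for endodermis and suberin, 2 for salicylate and 4 for GST. Both gave 3 lower for auxin and 2 lower for defensin genes, which had none.

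Of 979 alternative values of the 68 called results for single genes (a gene counts again in each comparison), none reversed and 20 fell below a limit, while 55 results never did. Ratios near 0 that were not called changed sign: leaving out a replicate gave DET2 -0.267 to 0.0632, CPD -0.19 to 0.404, DWF7 -0.248 to 0.0717 and DWF5 -0.167 to 0.17. DWF7 was 0.0189 with median centring, and DWF5 0.0048 with an offset of 0, 0.0013 in the deposited ratios and 0.10 with median centring. The cause was not tested. Dim genes are limited by signal over background, since the offset set the size of their ratios.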

Other observations

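A set of 38 genes had a ratio above 0 on replicate 1 and below -1.4 on replicate 2, while 1 gene had the opposite, and none of them was called. Their median level in quad was 6.75 in replicate 1 and 6.54 in replicate 2, and in WT 6.60 in replicate 1 and 8.22 in replicate 2, so that the WT channel of replicate 2 stood apart. Of these genes 36 were in the RefSeq table, and 15 lay within 5 loci of another of them. AT2G01023 had the largest gap, with ratios of 0.70 and -3.17. Of 71 genes lower without replicate 1, 27 were above 0 on replicate 1 and 28 were called lower with both. These genes were picked out by their values, and no test was made.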
